A study of Mus musculus with 8 samples.

Results

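Chemokines and chemokine receptors were taken as the genes whose annotated symbol is Ccl, Cxcl, Cx3cl, Xcl, Ccr, Cxcr, Cx3cr, Xcr or Ackr followed by a number, leaving out 6 genes of the lymphoid axis (Ccl19, Ccl21a, Ccl21b, Cxcl13, Ccr7 and Cxcr5). The rule found 54 of the 16593 named genes of the array. RNA came from the epididymal fat, a white adipose tissue (WAT), of 4-month-old males of the C57BL6/J strain, and each sample was run on 1 Illumina BeadChip. The labels give 4 samples of transgenic mice that overexpress angiotensinogen (Agt), the precursor of the angiotensin peptides, in white adipose tissue (Agt Tg), and 4 samples of wild type (Wt) mice. Per the methods, both groups had been fed a low fat diet. The paper's discussion gives the promoter of the transgene as aP2 (Fabp4), which is active in macrophages as well as in adipocytes. The comparison asked whether the transcripts that draw leukocytes into WAT differ when Agt is overexpressed, and how they vary with macrophage transcripts over the 8 arrays. The labels do not say whether the samples are different mice. The p-values here therefore cover the spread among these samples, which may be technical.

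Chemokines are small secreted proteins that guide leukocytes along a concentration gradient. They are named by the spacing of their first cysteines (CC, CXC, CX3C or XC) and act on receptors that signal through inhibitory G proteins. Atypical receptors bind chemokines without this signal and scavenge or transport them. In fat, monocytes follow ligands such as Ccl2 into the tissue, and adipocytes, stromal cells, endothelium and macrophages can all make chemokines. Whole tissue RNA was measured, so fewer cells of a type and less RNA per cell cannot be told apart.

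Of 25696 probes, 11253 to 12284 were detected on an array, and arrays of 1 group correlated at 0.956 to 0.986 in Agt Tg and 0.958 to 0.985 in Wt. The labelled tissue showed its markers, as all 8 measured genes of a list of white adipocyte genes were detected, with Adipoq, which encodes adiponectin, at a log2 intensity of 13.17 in Agt Tg and 13.34 in Wt. Agt itself did not separate the groups. Its normalized log2 intensity was 6.74, 8.80, 6.39 and 8.39 on the arrays labelled Agt Tg, against 7.50, 8.87, 8.11 and 8.09 on the Wt arrays. The difference was -0.56 ± 0.48 (SE), with p = 0.4 in an exact two-sided permutation test over 70 assignments, whose smallest p is 0.0286. The sources used here do not give whether this probe reads the transgene, so each direction below rests on the labels alone.

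A gene was called detected, or kept, when 4 or more of the 8 arrays gave one of its probes a detection p below 0.05. This held for 24 of the 54 chemokine and receptor genes (44.4%), against 8285 of the 16593 named genes (49.9%). Of the 54 genes, 15 were detected on all 8 arrays, 13 on 1 to 3 arrays, and 17 on none. On single arrays 25, 20, 25 and 23 of them were detected in Agt Tg, against 27, 22, 26 and 28 in Wt. Agt Tg replicate 2 detected the fewest. No kept gene was detected in 1 group alone, and none was detected on every array of 1 group with at most 1 array of the other.

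Ligands were detected more often than signalling receptors. Of 34 ligands 18 were kept, made up of 12 of 20 CC ligands, 6 of 12 CXC ligands and 0 of 2 ligands of the CX3C and XC kinds. Of 16 signalling receptors 3 were kept, with 0 of 9 CC receptors, 2 of 5 CXC receptors (Cxcr3 and Cxcr4) and 1 of 2 in the CX3C and XC kinds (Cx3cr1). Of 4 atypical receptors 3 were kept (Ackr1, Ackr2 and Ackr3), and Ackr4 was detected on 1 array. A probe not detected has no level here, and these arrays do not show that its transcript is absent.

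Set out by ligand and receptor, most pairs had 1 side only. Ccl2 and Ccl7, which draw monocytes through Ccr2, were kept, and Ccr2 was detected on 0 of 8 arrays. Ccl8 was kept and is not set beside a receptor here. Ccl11 and Ccl24, the eotaxins, were kept, and their receptor Ccr3 was detected on 1 array. Ccl6 and Ccl9, ligands of Ccr1 in the mouse, were kept, and Ccr1 was detected on 0 arrays. Cxcl1, which draws neutrophils through Cxcr2, was kept, with Cxcr2 on 1 array. Cxcl16, a membrane-bound ligand, was kept, with its receptor Cxcr6 on 0 arrays, and Ccl27a was kept with its receptor Ccr10 on 0 arrays. Both sides were kept for Cxcl9 and Cxcl10 with Cxcr3, the receptor of activated T cells, and for Cxcl12 with Cxcr4 and the scavenger Ackr3. Cx3cr1, the fractalkine receptor of monocytes and macrophages, was kept, and fractalkine itself (Cx3cl1) was detected on 3 arrays, 2 of them Agt Tg and 1 Wt. Ccl12, Ccl25 and Cxcl2 were also detected on 3 arrays each and Ccr6 on 2, and Ccl17, Ccl26, Ccr8, Cxcl11 and Cxcl17 on 1 each.

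**Figure D1:**
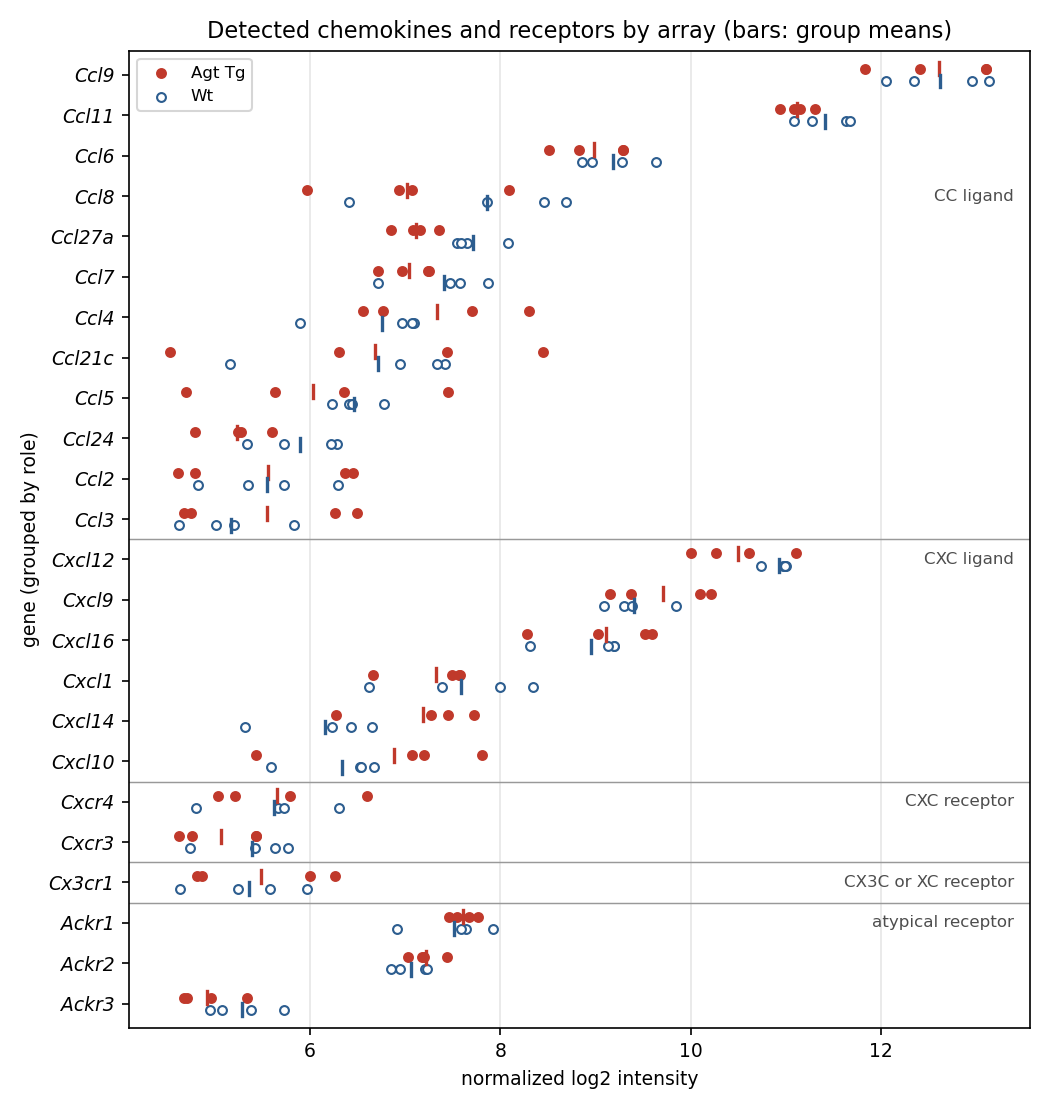
Normalized log2 intensity (x axis) of the 24 kept genes (y axis, grouped by role), with filled points for the 4 Agt Tg arrays above open points for the 4 Wt arrays and bars at the group means. The points of the groups overlap for every gene but Ccl27a, and Ccl2, Ccl3 and Cx3cr1 each show 2 low and 2 high Agt Tg arrays.

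No chemokine or receptor gene passed the group comparison. At adjusted p under 0.05 (limma, Benjamini-Hochberg over 11624 probes) 0 of the 24 kept genes differed between Agt Tg and Wt, and 0 of all 8285 genes did (0% called), with a lowest adjusted p of 0.224 over all probes. Of the 24 genes 11 were higher and 13 lower in Agt Tg, with a median log2 difference of -0.021, beside 0.014 over all kept genes. At unadjusted p under 0.05, 1 of them was higher and 2 were lower. Over all genes 3.93% were higher and 5.35% lower at that threshold, so these counts stand close to the background. Sizes depended on the background correction. Without it the differences of Ccl27a, Ccl24, Ccl8 and Ccl4, described next, were -0.37, -0.21, -0.53 and 0.33. The intervals were wide at 4 arrays a group. That of Ccl2, for example, ran from -0.95 to 0.96 on the log2 scale (95%, not adjusted for the number of probes). Differences within that range were not excluded for this gene.

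Ccl27a, a CC ligand known for its part in skin, was the gene whose groups did not overlap. Its log2 intensity was 6.86, 7.35, 7.15 and 7.09 in Agt Tg, against 7.65, 7.55, 8.09 and 7.59 in Wt. Every Agt Tg array lay below every Wt array, as was so for 3.31% of all genes, and 0 kept genes had every Agt Tg array above every Wt array, beside 3.05% of all genes. The difference was -0.60 ± 0.19 (SE), 1.52-fold lower, with an adjusted p of 0.375 (limma). A dimmer second probe of Ccl27a did not show it, at 4.85, 6.20, 5.68 and 5.99 in Agt Tg, against 5.42, 5.89, 5.98 and 5.13 in Wt. That probe is annotated to another transcript, and its difference was 0.073 ± 0.30 (SE). Mouse Ccl27 genes have near-identical copies, so which copy either probe reads is uncertain.

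Cxcl14, a CXC ligand of epithelium and stroma, had the largest difference among the kept genes. It read 7.73, 7.27, 7.45 and 6.28 in Agt Tg, against 6.65, 6.23, 5.32 and 6.43 in Wt. Replicate 4 was the lowest Agt Tg array and overlapped the Wt range. The difference was 1.02 ± 0.34 (SE), 2.03-fold higher, with an adjusted p of 0.387 (limma), and it was 0.50 without background correction. On its second, dimmer probe Cxcl14 differed by 0.075 ± 0.32 (SE), so the probes did not give the same difference.

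Ccl24, an eosinophil attractant made by alternatively activated macrophages, read 5.25, 5.604, 4.79 and 5.28 in Agt Tg, against 5.33, 6.28, 6.22 and 5.73 in Wt. It was detected on 3 Agt Tg arrays and 4 Wt arrays, and the ranges overlapped. The difference was -0.66 ± 0.26 (SE), with an adjusted p of 0.464 (limma). Ccl11, the other eotaxin, read 11.15, 11.08, 10.94 and 11.31 in Agt Tg, against 11.63, 11.08, 11.27 and 11.68 in Wt. Wt replicates 2 and 3 lay within the Agt Tg range. The difference was -0.30 ± 0.16 (SE) with an adjusted p of 0.559, and -0.44 ± 0.27 (SE) on a second probe of Ccl11.

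Ccl8, a CC ligand, had a wide spread in both groups. It read 8.09, 5.96, 6.94 and 7.07 in Agt Tg, against 8.46, 6.41, 7.86 and 8.69 in Wt. Replicate 2 was the lowest array of each group. The difference was -0.84 ± 0.49 (SE), with an adjusted p of 0.581 (limma). Ccl4, which attracts monocytes, natural killer cells and T cells, was 8.30, 6.55, 7.70 and 6.77 in Agt Tg, against 6.97, 5.90, 7.09 and 7.07 in Wt. Replicates 1 and 3 of Agt Tg were above every Wt array. Its difference was 0.57 ± 0.38 (SE), with an adjusted p of 0.631.

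Ackr3, the scavenger of Cxcl12, read 4.68, 4.96, 4.70 and 5.34 in Agt Tg, against 5.72, 5.38, 4.95 and 5.07 in Wt. It was detected on 1 Agt Tg array and 3 Wt arrays. The difference was -0.36 ± 0.24 (SE), with an adjusted p of 0.629 (limma). Ackr1 takes up many inflammatory chemokines on venular endothelium and red cells. It read 7.54, 7.67, 7.77 and 7.46 in Agt Tg, against 7.64, 6.91, 7.59 and 7.93 in Wt, a difference of 0.094 ± 0.22 (SE). Ackr2, a scavenger of inflammatory CC chemokines, averaged 7.21 in Agt Tg and 7.06 in Wt.

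Of the other kept genes, Cxcl9 and Cxcl10, both known as interferon-induced, averaged 9.71 and 6.88 in Agt Tg, against 9.40 and 6.33 in Wt, and their receptor Cxcr3 averaged 5.07 in Agt Tg and 5.39 in Wt. Ccl3, a monocyte attractant, averaged 5.55 in Agt Tg and 5.17 in Wt. Ccl7 averaged 7.05 in Agt Tg and 7.41 in Wt, and Cxcl1 7.32 in Agt Tg and 7.59 in Wt. Cxcr4, the signalling receptor of Cxcl12, read 6.599, 5.21, 5.79 and 5.03 in Agt Tg, against 5.67, 5.72, 4.80 and 6.31 in Wt. It was detected on 3 arrays of each group and differed by 0.034 ± 0.37 (SE). None of these passed at adjusted p under 0.05.

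**Figure D2:**
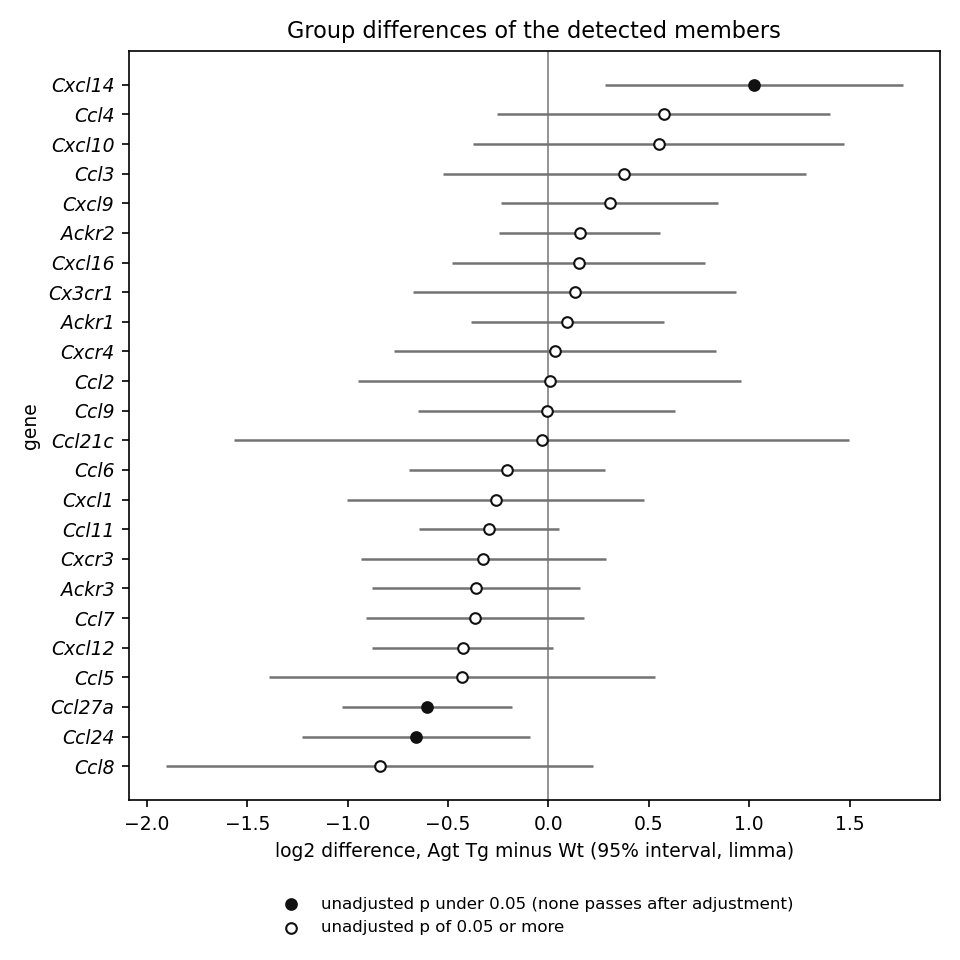
Log2 difference, Agt Tg minus Wt (x axis), of the 24 kept genes (y axis), with 95% intervals from limma. Filled points have an unadjusted p under 0.05 (Cxcl14, Ccl27a and Ccl24), and no gene passed after adjustment.

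The kept chemokine and receptor genes varied widely from array to array within each group. The median SD over the 8 arrays was 0.516 for the 24 kept genes, beside 0.307 over all kept genes. To set it beside the macrophage content of each array, a macrophage score was taken as the mean over 19 detected macrophage genes of their log2 values, each centred on its mean over the arrays. No chemokine or receptor is in the score. Of the listed macrophage genes, Cd68, Csf1r and Mpeg1 were among those not analysed here and Msr1 was not detected on enough arrays, while Adgre1, a surface marker of mouse macrophages, Fcgr1, Cd14, Lyz2 and the C1q genes were in the score. The score was 0.449, -0.797, 0.347 and -0.445 in Agt Tg, against 0.372, -0.181, 0.0043 and 0.249 in Wt. Replicates 2 and 4 of Agt Tg were lowest and replicate 1 of Agt Tg was highest, so the Agt Tg group held both ends. The group means differed by -0.222, with p = 0.514 (exact two-sided permutation). Of the 19 score genes 6 were higher and 13 lower in Agt Tg, and 0 passed at adjusted p under 0.05. Among them Cd163 differed by -1.20 ± 0.20 (SE), with an adjusted p of 0.224 (limma), the lowest over all probes. Every Agt Tg array lay below every Wt array for Cd163, as for 3.31% of all genes.

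Ccl2, the main monocyte attractant, followed the score most closely. It read 6.36, 4.62, 6.45 and 4.80 in Agt Tg, against 6.30, 4.82, 5.35 and 5.73 in Wt. The 3 arrays with the highest scores, Agt Tg replicates 1 and 3 and Wt replicate 1, were also highest in Ccl2, and it was detected on 2 Agt Tg and 3 Wt arrays. Pearson r was 0.930 and Spearman rho 0.929 over the 8 arrays. The exact permutation p of r over all 40320 orders was 2.0e-04, or 0.0473 after Benjamini-Hochberg adjustment over 8266 genes. Without Agt Tg replicates 2 and 4, the arrays farthest from the median score, r was 0.972. While the group means of Ccl2 differed by 0.0054, its Agt Tg arrays thus spanned more than its Wt arrays.

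Ccl5, which attracts T cells and monocytes, read 7.45, 4.70, 6.36 and 5.63 in Agt Tg, against 6.78, 6.23, 6.41 and 6.45 in Wt. The 4 Wt arrays lay close together, and the Agt Tg arrays ran past them on both sides. Its r was 0.926 and its rho 0.929, with an exact permutation p of 1.7e-04, adjusted 0.0473. Without Agt Tg replicates 2 and 4, r fell to 0.686 with an exact p of 0.113, so the relation of Ccl5 rests in part on those arrays. Of the 24 kept genes Ccl2 and Ccl5 passed this test, and 0.242% of all genes did with r above 0. Both calls sat at the threshold. Each was lost with any 1 array left out, without background correction, with the authors' log2 values, with median scaling, with no filter, and with group means subtracted (adjusted p = 0.23 for both, exact permutation). Over all alternatives the adjusted p ran from 0.0482 to 0.268 for Ccl2 and from 0.0482 to 0.338 for Ccl5.

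Ccl6 and Ccl9, CC ligands that macrophages and other myeloid cells make in the mouse, came next. Ccl6 read 9.29, 8.51, 9.29 and 8.83 in Agt Tg, against 9.28, 8.86, 8.96 and 9.64 in Wt, with r = 0.886, rho = 0.833 and an adjusted exact p of 0.106. Ccl9 read 13.10, 11.84, 13.11 and 12.41 in Agt Tg, against 12.96, 12.35, 12.05 and 13.13 in Wt, with r = 0.864, rho = 0.690 and an adjusted exact p of 0.115. In both genes Agt Tg replicate 2 was the lowest array and Wt replicate 4 the highest. Their differences between the groups were -0.20 ± 0.23 (SE) for Ccl6 and -0.0091 ± 0.30 (SE) for Ccl9.

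Cx3cr1 read 6.00, 4.87, 6.26 and 4.82 in Agt Tg, against 5.58, 4.64, 5.24 and 5.97 in Wt, with r = 0.828, rho = 0.786 and an adjusted exact p of 0.161. It was detected on 2 Agt Tg and 3 Wt arrays, and its Agt Tg arrays again fell into 2 high and 2 low. Cxcl16, also a scavenger receptor of macrophages, read 9.52, 8.28, 9.60 and 9.03 in Agt Tg, against 9.20, 8.31, 9.20 and 9.13 in Wt, with r = 0.801, rho = 0.810 and an adjusted exact p of 0.188. Replicate 2 was lowest in both groups.

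**Figure D3:**
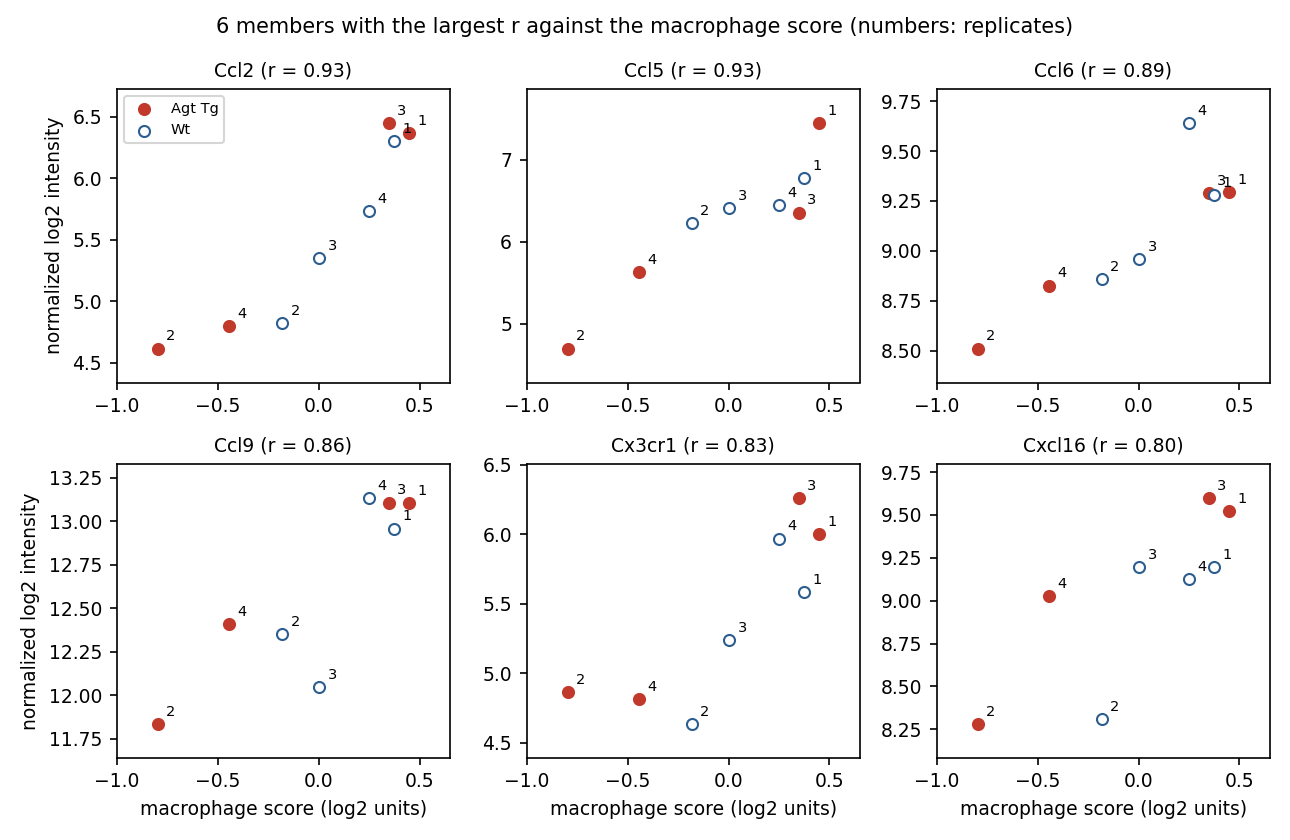
Normalized log2 intensity (y axis) against the macrophage score (x axis, log2 units) for the 6 genes of largest r, with filled points for Agt Tg, open points for Wt and replicate numbers beside them. Agt Tg replicate 2, at a score of -0.797, is the lowest array in every panel but that of Cx3cr1.

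Across the 24 genes the median r was 0.62, beside -0.04 over all 8266 genes, and 14 of them (58.3%) had r above 0.5, beside 18.9% of all genes. The median r was 0.60 without Agt Tg replicates 2 and 4, and 0.66 after group means were subtracted. Median rho was 0.46. These are descriptions of genes that share the same 8 arrays.

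With the group in the fit, 9 of the 24 genes rose with the macrophage score at adjusted p under 0.05 (limma, over all kept probes but those of the score) and 0 fell. Over all genes 4.17% rose and 2.19% fell. The median slope was 0.69 for the 24 genes and -0.023 over all genes, in log2 units per log2 unit of score. Of CC ligands, Ccl2 had a slope of 1.72 ± 0.27 (SE; adjusted p = 0.0015), Ccl5 1.66 ± 0.29 (adjusted p = 0.0035), Ccl9 1.09 ± 0.19 (adjusted p = 0.0037) and Ccl4 1.36 ± 0.28 (adjusted p = 0.0092). Ccl3, at 1.39 ± 0.34, and Ccl8, at 1.52 ± 0.42, had adjusted p of 0.0255 and 0.0452. Ccl3 was detected on 2 Agt Tg and 3 Wt arrays, and Ccl5 on 3 Agt Tg and 4 Wt arrays. Of CXC ligands, Cxcl16 rose by 1.01 ± 0.22 (adjusted p = 0.0126) and Cxcl10 by 1.33 ± 0.37 (adjusted p = 0.0463). Cx3cr1 was the receptor that passed, at 1.29 ± 0.29 (adjusted p = 0.0173). Ccl6 missed the threshold at 0.70 ± 0.20, with an adjusted p of 0.0516.

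The number of calls changed with the arrays in the fit. Without Agt Tg replicate 2, 2 genes passed (Ccl2 and Ccl21c), without replicate 1, 4 passed, without replicate 3, 5 and without replicate 4, 8. Calls over all kept probes fell as well, from 684 to 176 without Agt Tg replicate 2, 326 without replicate 1 and 264 without replicate 3. Without Agt Tg replicates 2 and 4 together, 0 of the 24 genes passed, and over all kept probes 1 did in place of 684. In that smaller fit the slopes of Ccl2, Ccl4, Ccl8 and Ccl9 were 2.38, 1.82, 3.99 and 1.58. Those of Cx3cr1, Cxcl10 and Cxcl16 were 1.87, 1.35 and 1.30. None of these slopes was below its value over 8 arrays. The slope of Ccl3 fell from 1.39 to 0.46 and that of Ccl5 from 1.66 to 1.11. The slope of Ccl2 passed whichever single array was left out and ran from 1.63 to 2.05. Ccl9 passed in 7 of the 8 such fits and Ccl4, Ccl5 and Cxcl16 in 6. The slopes of all 9 genes stayed above 0 in every alternative. Their sizes and order did not stay the same. Without background correction the slopes of Ccl2, Ccl5, Ccl3 and Cx3cr1 were 0.82, 0.93, 0.67 and 0.59, and Ccl9 had the largest at 1.57, with Cxcl16 at 1.204. The authors' log2 values gave nearly the same slopes. The 9 genes held none of the atypical receptors.

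**Figure D4:**
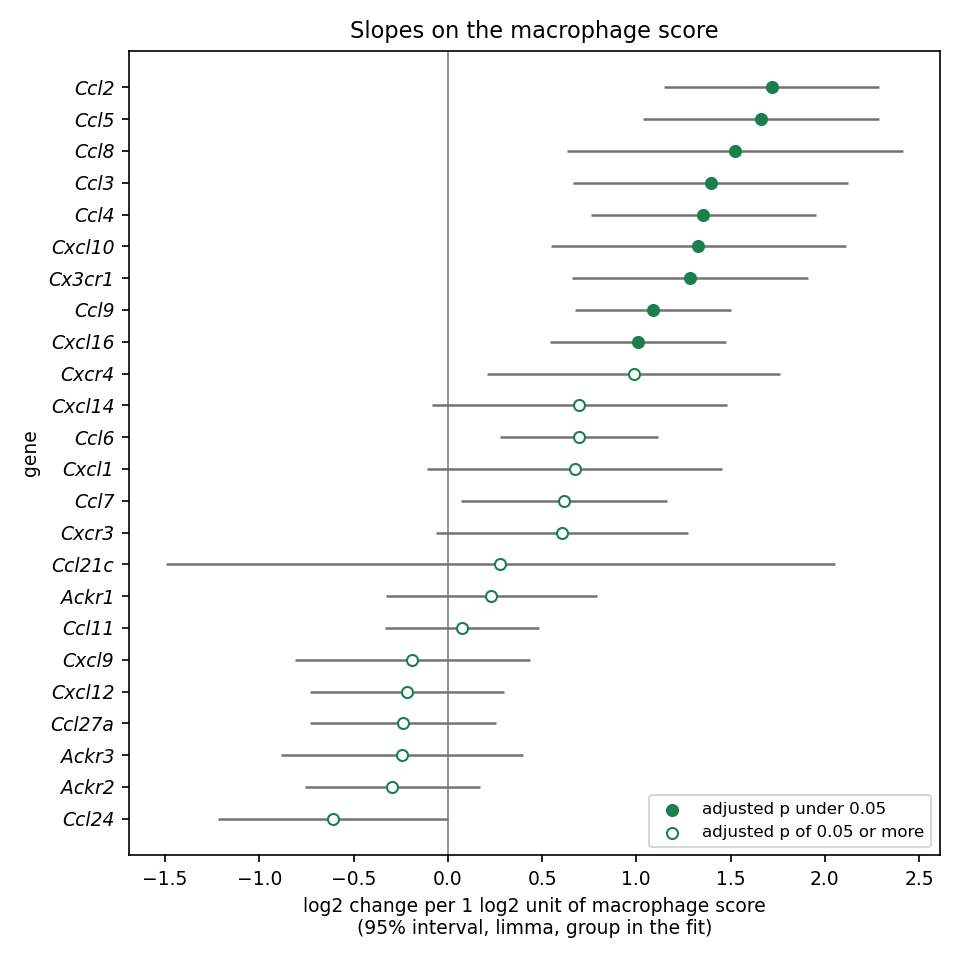
Slope of each of the 24 kept genes (y axis) on the macrophage score, as log2 change per log2 unit of score (x axis), with 95% intervals from a limma fit that holds the group. Filled points passed at adjusted p under 0.05, and the 9 of them run from 1.01 for Cxcl16 to 1.72 for Ccl2, an order that differs without background correction (Ccl9 largest at 1.57, Cx3cr1 smallest at 0.59).

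Some chemokines did not follow the score. Cxcl9, which shares the receptor of Cxcl10, read 10.21, 10.10, 9.15 and 9.37 in Agt Tg, against 9.30, 9.38, 9.84 and 9.09 in Wt. Agt Tg replicates 1 and 2, the arrays with the highest and the lowest score, were its highest. Its slope was -0.19 ± 0.29 (SE). Cxcl10 read 7.07, 5.43, 7.81 and 7.20 in Agt Tg, against 6.53, 5.59, 6.54 and 6.67 in Wt, and was lowest on replicate 2 of each group. The difference between the slopes of Cxcl9 and Cxcl10 was not tested. Ackr2 had r = -0.77 with the score (adjusted exact p = 0.213) and a slope of -0.29 ± 0.22 (SE).

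The genes whose r lay nearest 0 were Ccl27a (-0.031) and Cxcl12 (-0.072), each on its brightest probe, and Ccl21c (0.093). The second, dimmer probe of Ccl27a had r = -0.815 and a slope of -0.90 ± 0.29 (SE; adjusted p = 0.0845, limma). For Ccl27a the probes thus did not give the same relation to the score. Ccl21c, whose copies attract T cells and dendritic cells to lymphoid tissue, read 7.43, 8.45, 6.31 and 4.53 in Agt Tg, against 7.42, 5.16, 7.34 and 6.94 in Wt. It was highest on Agt Tg replicate 2, the array of lowest score, and without that array r was 0.839. Ccl21 copies are near-identical in the mouse, so this probe may also read copies that the rule left out. Its difference between the groups was -0.034 ± 0.71 (SE).

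For Cxcl12, which binds Cxcr4 and is made by stromal cells and progenitors, the result turned on the probe. The 3 kept probes are annotated to 3 different RefSeq transcripts of Cxcl12. The brightest, which stands for the gene in every count here, read 10.61, 10.27, 10.0004 and 11.11 in Agt Tg, against 10.74, 11.00, 10.97 and 10.99 in Wt. It differed by -0.43 ± 0.21 (SE) between the groups (adjusted p = 0.519, limma) and had a score slope of -0.22 ± 0.24 (SE). The second Cxcl12 probe read 10.17, 8.06, 9.37 and 7.97 in Agt Tg, against 9.79, 8.76, 8.88 and 9.27 in Wt. Its order over the arrays was nearly that of the score, with rho = 0.976, r = 0.937 and a slope of 1.66 ± 0.24 (SE; adjusted p = 7.3e-04). The third Cxcl12 probe read 9.87, 8.06, 9.58 and 8.63 in Agt Tg, against 9.33, 8.35, 8.65 and 9.003 in Wt, with r = 0.896 and a slope of 1.42 ± 0.18 (SE; adjusted p = 2.8e-04). Neither probe differed between the groups beyond its error, at -0.28 ± 0.42 (SE) and 0.20 ± 0.35 (SE). Taken as the mean of its probes, Cxcl12 rose with the score at a slope of 0.97 (adjusted p = 0.0059, limma). With every gene taken so, 10 genes passed in place of 9. Ccl6 was gained as well (adjusted p = 0.0371, limma) and Ccl8 was lost (adjusted p = 0.0549). Which transcripts each probe can bind was not tested.

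**Figure D5:**
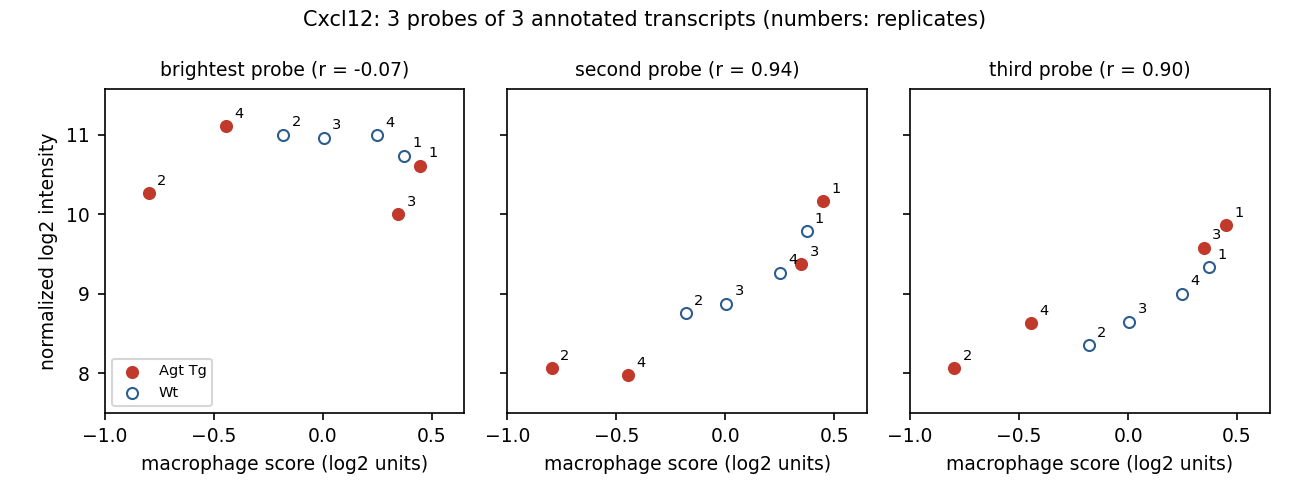
Normalized log2 intensity (y axis) of 3 probes annotated to different Cxcl12 transcripts against the macrophage score (x axis, log2 units), with filled points for Agt Tg, open points for Wt and replicate numbers beside them. The brightest probe has r = -0.07, and the others have r = 0.94 and 0.90.

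At an equal macrophage score, the group term again called 0 of the 24 genes at adjusted p under 0.05, beside 0.0121% of all genes (1 gene). At unadjusted p under 0.05, 4 genes were higher in Agt Tg (Cxcl14, Ccl4, Cxcl10 and Ccl3) and 3 lower (Ccl27a, Ccl24 and Cxcl12), beside 5.76% higher and 6.47% lower over all genes. In this fit Ccl4 differed by 0.88 ± 0.23 (SE; adjusted p = 0.175), against 0.57 without the score, and Cxcl14 by 1.18 ± 0.30 (SE; adjusted p = 0.175). Cxcl10 differed by 0.84 ± 0.30 (SE; adjusted p = 0.288) and Ccl3 by 0.69 ± 0.28 (SE; adjusted p = 0.358).

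Markers of some other cells moved with the macrophage score. The mean levels of other lists, taken the same way, correlated with it at r = -0.90 for white adipocyte genes (8 genes), 0.88 for fibroblast and progenitor genes (9), 0.82 for neutrophil genes (4), -0.73 for endothelial genes (7), -0.86 for dendritic cell genes (3), 0.50 for mast cell genes (4), 0.68 for the 1 detected eosinophil gene, 0.40 for T and NK cell genes (5), 0.35 for B and plasma cell genes (5), -0.53 for mesothelial genes (5) and 0.14 for red blood cell genes (4). The white adipocyte score ran from -0.34 to 0.36 in Agt Tg and from -0.17 to 0.24 in Wt, and 3 of its 8 genes (Pnpla2, Pparg and Fabp4) fell as the macrophage score rose. The T and NK cell score ran from -0.70 to 0.13 in Agt Tg and from -0.31 to 0.67 in Wt, and Cd4, Cd8a, Gzma and Ncr1 were below the detection filter. Single genes of 3 further lists rose with the score, namely S100a8 of the neutrophil list, Lum of the fibroblast and progenitor list (adjusted p = 6.0e-04, limma) and Cpa3 of the mast cell list (adjusted p = 0.0453), beside 4.17% of all genes that rose and 2.19% that fell. In the T and NK cell, B and plasma cell, dendritic cell, eosinophil, endothelial, mesothelial and red blood cell lists 0 genes passed in either direction. Of the neutrophil list S100a9, Ngp, Camp, Mmp8 and Mpo were below the filter. The part of these cell types in the relation of chemokines to the macrophage score was not tested.

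The 24 genes lie on 8 chromosomes, and 10 of them are on chromosome 11, where mouse CC ligands form a cluster. Of these 10, 7 rose with the score (Cxcl16, Ccl2, Ccl8, Ccl5, Ccl9, Ccl3 and Ccl4) and Ccl7, Ccl11 and Ccl6 did not pass. Over all 24 kept genes 9 rose, and over all genes of the array that were tested 4.17% did. Cxcl16 is a CXC ligand and is counted here for its chromosome alone. The 4 genes on chromosome 5 are Cxcl1, Cxcl9, Cxcl10 and Ccl24, of which Cxcl10 passed. Neighbours therefore differed in whether they passed. Ccl2 and Ccl7, next to each other among the kept genes, had slopes of 1.72 and 0.62, and Ccl7 had an adjusted p of 0.197. The difference between the slopes of Ccl2 and Ccl7 was not tested.

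Promoter sequence from RefSeq (build GRCm38.p6) was at hand for 16 of the 24 genes and for 5 of the 9 that rose with the score. Those 5 are printed because each rose with the score, with Cxcl9 as the neighbour of Cxcl10 that did not. Each line holds 150 bases up to the base before the transcript start, 5′ to 3′ on the gene's strand. Capitals mark matches to the TATA box TATAAA (sense strand), to GAGGAAG, the core that PU.1 binds, to GAAANNGAA, of the interferon response type, and to the NF-kB consensus, the last 3 on both strands. Ccl8 lies at chr11:82115035-82115184 (plus strand), Ccl9 at chr11:83578637-83578786, Ccl3 at chr11:83649379-83649528, Cxcl10 at chr5:92348890-92349039, Cx3cr1 at chr9:120068297-120068446 and Cxcl9 at chr5:92328080-92328229 (all minus strand).
Ccl8: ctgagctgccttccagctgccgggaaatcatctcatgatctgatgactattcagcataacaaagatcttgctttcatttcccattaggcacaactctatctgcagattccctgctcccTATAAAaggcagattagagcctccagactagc
Ccl9: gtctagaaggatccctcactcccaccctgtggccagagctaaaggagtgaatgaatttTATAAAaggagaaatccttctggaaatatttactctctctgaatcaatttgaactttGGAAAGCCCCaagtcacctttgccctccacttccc
Ccl3: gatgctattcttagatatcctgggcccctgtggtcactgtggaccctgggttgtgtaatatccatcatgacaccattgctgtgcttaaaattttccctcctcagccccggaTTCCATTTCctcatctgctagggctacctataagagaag
Cxcl10: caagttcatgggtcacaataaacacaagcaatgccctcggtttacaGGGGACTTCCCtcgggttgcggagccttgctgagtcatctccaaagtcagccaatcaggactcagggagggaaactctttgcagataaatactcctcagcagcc
Cx3cr1: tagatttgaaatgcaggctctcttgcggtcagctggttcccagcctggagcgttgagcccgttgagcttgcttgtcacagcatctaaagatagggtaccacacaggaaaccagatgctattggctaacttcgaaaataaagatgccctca
Cxcl9: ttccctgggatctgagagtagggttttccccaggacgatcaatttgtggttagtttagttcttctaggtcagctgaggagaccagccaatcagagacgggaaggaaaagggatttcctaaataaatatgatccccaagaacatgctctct

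TATAAA was found in Ccl8 and Ccl9, so in 2 of the 5 genes, against 2 of the 11 other kept genes with a promoter and 4.84% of 32851 RefSeq promoters. The NF-kB consensus was found in Ccl9 and Cxcl10, 2 of the 5, against 2 of the 11 and 4.6% of all promoters. In Cxcl10 the capitals cover overlapping matches on both strands. GAAANNGAA was found in Ccl3 alone of the 5 and in 0 of the 11, beside 3.95% of all promoters. GAGGAAG was found in 0 of the 5 and 1 of the 11, beside 6.85% of all promoters. The windows of Cx3cr1 and Cxcl9 held none of these letters. A match is a run of letters and not a bound site.

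The rest of the pathway was read from lists of relatives, of G proteins and their brakes, of kinases and migration genes, and of proteases that cut chemokines. No gene of these lists passed the group comparison, with 12, 14, 20 and 7 genes kept. In the group fit, 5 relatives were higher and 7 lower in Agt Tg, 7 and 7 of the G protein list, 8 and 12 of the kinase list, and 3 and 4 of the protease list. Among relatives the smallest p were those of Rarres2, the chemerin ligand (-0.36 ± 0.13, SE; adjusted p = 0.430, limma), Cmtm7 (0.60 ± 0.24) and Fpr2, a formyl peptide receptor (-0.79 ± 0.32). In the G protein list they were Gnb2 (0.35 ± 0.14), Grk5 (-0.45 ± 0.21) and Grk6 (0.36 ± 0.19), the last 2 being kinases that turn receptors off. In the kinase list they were Stat3 (0.43 ± 0.17), Cdc42 (-0.48 ± 0.22) and Rac1 (0.26 ± 0.16). Of the proteases they were Mmp9 (-0.83 ± 0.33), Dpp4, which trims chemokine ends (0.24 ± 0.15), and Mmp2 (0.30 ± 0.27).

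On the macrophage score, 1 of 12 relatives rose, 3 of 14 genes of the G protein list, 3 of 20 of the kinase list and 4 of 7 of the protease list, and none fell, beside 4.17% rising and 2.19% falling over all genes. They were Cklf among the relatives, Rgs1, Rgs10 and Arrb2 of the G protein brakes, Rac2, Vav1 and Was of the migration genes, and Mmp12, Mmp2, Mmp3 and Adam17 of the proteases, which are named because they passed. Rgs1, which shortens G protein signals in leukocytes, had a slope of 2.77 ± 0.33 (SE; adjusted p = 1.9e-04, limma). Rgs10 had 1.76 ± 0.20 (adjusted p = 1.5e-04) and Mmp12, the macrophage elastase, 2.61 ± 0.31 (adjusted p = 1.9e-04). Rac2, a leukocyte GTPase of cell migration, had 1.42 ± 0.32, while its widely expressed relative Rac1 had -0.26 ± 0.18 (SE; adjusted p = 0.472). The difference between the slopes of Rac2 and Rac1 was not tested.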

How the data were processed

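RNA of 8 samples, 4 Agt Tg and 4 Wt, was read on Illumina mouse BeadChips. The deposited table gave, per probe and array, an intensity on a linear scale and a detection p-value, neither of them normalized by the authors. A table of log2 values by the authors, whose processing notes name lumi, was matched to quantile-normalized log2 intensities without centring, with a median of 7.11 on every array. It served as an alternative.

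Intensities were corrected and quantile normalized with neqc (limma 3.58.1 in R 4.3.3; offset 16), which derived the background of the negative controls from those p-values. Probes with p under 0.05 on at least 4 arrays were kept (11624 of 25696, 45.2%), and the brightest stood for a gene. Of the probes 23978 had 1 gene symbol, 0 several and 1718 none. Levels are not comparable between probes. The precision is limited by 4 arrays a group. A blank row (1) and 1 probe found in the log2 table alone were left out.

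Groups were compared with lmFit and eBayes (trend) and Benjamini-Hochberg adjustment over all kept probes. A second fit held the group and the macrophage score, without the score's genes. Single values and correlations had exact permutation tests. The fits were tested on simulated data. Genes are named where they had one of the 8 smallest group p-values, the 6 largest or 3 smallest correlations with the score, or the brightest probe of a role, and in the other lists the 3 smallest p-values. The members and lists were chosen with earlier results of these data known. Alternatives covered background correction, scaling, offset, filter, probe summary, array weights, the fit, the replicate block, the score's genes and leaving out arrays.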

Additional observations from a re-analysis of the deposited data

Results flagged for a closer look

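In 5 of 52 groups of 4 arrays, 1 array stood apart from the other 3 by more than Dixon's 95% limit, and chance gives about 1 in 20. For Cxcl1, Agt Tg replicate 2 was lowest at 6.67, with the others at 7.49 to 7.58. Wt replicate 2 was lowest for Ccl4 at 5.90 (others 6.97 to 7.09), for Cxcl10 at 5.59 (others 6.53 to 6.67) and for Cxcl16 at 8.31 (others 9.13 to 9.20). Wt replicate 1 was lowest for Cxcl12 at 10.74 (others 10.97 to 11.00). Wt replicate 2 had the lowest macrophage score of the Wt arrays, at -0.181, and the part of that score in these low values was not tested.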

How the results depend on the processing

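No chemokine or receptor gene passed the group comparison under any alternative. Of group differences, 247 of 253 under other settings and 169 of 192 with 1 array left out kept their direction and side of the threshold. For slopes these were 273 of 325 and 160 of 192, and for correlations 208 of 229 and 166 of 192. The exact tests of r for Ccl2 and Ccl5 were past the threshold in 1 alternative each (the mean of probes for Ccl2, an offset of 50 for Ccl5). The causes of the changes below were not tested. In place of 9, the number of genes that rose with the score was 5 at detection p under 0.01 on all 8 arrays, where fewer genes were tested, 5 with the score of defining genes (2 of 5 measured), 5 with a score without genes of other leukocytes, 0 without Agt Tg replicates 2 and 4 (chosen after the data were seen), and 2 to 10 with 1 array left out. At an equal score, in place of 0, array weights called 3 (Ccl3, Ccl4 and Cxcl14) and leaving out 1 array called 0 to 1 (Ccl4 without Wt replicate 3). Detection counts were 15 on all 8 arrays, 37 on at least 1, and 22 at p under 0.01, in place of 24. The median r was 0.18 with no filter and 0.54 with the defining genes. Over all kept probes, 176 to 1345 were related to the score with 1 array left out, in place of 684.

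Whether replicate numbers pair the samples was not settled. Same-numbered arrays correlated at 0.333, 0.388, -0.0366 and -0.0817 in their deviations from the group means. No values for differently numbered arrays are given here to set beside these. With the replicate number as a block, 2 genes rose with the score (Ccl9 and Cxcr4) and 2 were called at an equal score (Ccl27a and Cxcl14), and slopes became -0.93 for Ccl21c, -0.21 for Ccl11, -0.0093 for Ackr1 and -0.037 for Ccl7.

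Signs also turned elsewhere. The Ccl21c difference was 0.063 without background correction and with the authors' log2 values, 0.026 with median scaling and 0.057 with an offset of 50. Its slope was -0.10 without background correction, -0.10 with the authors' values and -0.21 with array weights, and its r -0.063 and -0.062 in the first 2 of these. Median scaling gave a Ccl9 difference of 0.10 and a Ccl11 slope of -0.038. Array weights gave a Cxcr4 difference of -0.0068. The mean of a gene's probes gave slopes of -0.12 for Ccl11 and 0.97 for Cxcl12, and an r of 0.94 for Cxcl12. The strict filter gave an r of 0.062 for Ccl27a and 0.0073 for Cxcl12. Without Agt Tg replicates 2 and 4 the Ackr3 slope was 0.48.

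With 1 array left out, the differences that changed sign ran from -0.11 to 0.23 for Ackr1, -0.29 to 0.32 for Ccl2, -0.62 to 0.68 for Ccl21c, -0.90 to 0.015 for Ccl5, -0.20 to 0.25 for Ccl9, -0.13 to 0.35 for Cx3cr1, -0.066 to 0.42 for Cxcl16 and -0.28 to 0.26 for Cxcr4. Slopes ran from -0.026 to 0.21 for Ccl11, -0.52 to 2.98 for Ccl21c, -0.73 to 0.024 for Cxcl12 and -0.71 to 0.17 for Cxcl9. Correlations ran from -0.55 to 0.073 for Ackr3, -0.27 to 0.84 for Ccl21c, -0.20 to 0.28 for Ccl27a, -0.64 to 0.24 for Cxcl12, -0.052 to 0.62 for Cxcl14 and -0.73 to 0.14 for Cxcl9. The median difference ran from -0.28 to 0.10, that of Agt from -0.97 to -0.16, and the median r from 0.57 to 0.65.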
